A study of Rattus norvegicus with 36 samples.

Results

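The comparison described here set scar vocal fold (VF) fibroblasts that had been given a scramble siRNA, a small RNA duplex meant to target no gene, against scar VF fibroblasts that had been given none. It used 7 of the 36 arrays of the series, chosen by their titles: 3 of scramble siRNA cultures and 4 of untransfected scar cultures. All 7 cultures were primary cells of Fischer 344 rats that were 120 days old when injured and 180 days old at harvest, 60 days post-injury (PI). Each culture was grown as an explant of both VF mucosae of 1 rat and was studied at passage 1, in DMEM with 10% FBS. The untransfected cells were collected at 80% confluence. The scramble cells reached 80% confluence, met 50 nM siRNA in liposomes for 1 h, and then stayed in fresh medium for 24 h before collection. Time after confluence, the medium change, the liposomes and the RNA therefore went together with the group and cannot be told apart, and whether rats were shared between the groups is not stated. Side values come from 3 arrays of scar cultures given siRNA against gp46 by the same schedule and 3 arrays of untransfected cultures from experimentally naive rats of the same age.

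Values are the authors' log2 signals from Affymetrix rat arrays, 1 probe set per gene for 14217 genes, so 1 unit is a 2-fold difference. Calls needed a limma p under 0.05 after Benjamini-Hochberg adjustment over all genes, in a fit of the 13 fibroblast arrays in 4 groups. Within the scramble group the arrays correlated across genes at Pearson's r of 0.991 to 0.992, within the scar group at 0.977 to 0.987, and between both at 0.95 to 0.977. The deposited values hold no detection call, and the lower quartile of gene means was 6.30. Where a group's mean lay below it, as in Mmp13, Mmp10, Shcbp1, Orc1 and Exo1 (scar) or C3, Omd, Lmcd1, Panx3 and Lhfpl3 (scramble), the low signal was not shown to be above background, and the fold is that of the deposited values. The number of arrays limits the precision. The p-values and SEs rest on a spread pooled over the 13 cultures of 4 groups, with all arrays treated as independent. The median SD was 0.15 in the scar group and 0.13 in the scramble group. It was 0.11 in the gp46 siRNA group and 0.11 in the naive group.

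A fibroblast that leaves rest copies its DNA in S phase and divides in mitosis, and each phase has its own set of genes. Many mitotic genes carry a short promoter element, the cell cycle genes homology region (CHR), together with CCAAT boxes, and many S phase genes carry E2F sites. In scar, fibroblasts can take the form of myofibroblasts, which hold smooth muscle actin fibers and lay down collagen.

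The scramble siRNA was meant to have no target, so the check of the labels fell to Serpinh1 (gp46, the collagen chaperone HSP47), which the other siRNA targets. It measured 12.98, 12.96 and 12.93 on the scramble arrays, 13.38, 13.56, 13.42 and 13.16 on the scar arrays, 12.43, 12.64 and 12.67 on the gp46 siRNA arrays and 13.12, 13.09 and 13.20 on the naive arrays. The gp46 siRNA arrays were the lowest, with a difference of -0.80 from the scar arrays and -0.38 from the scramble arrays (not called in the latter comparison). The fit was unpaired, although siRNA arrays of the same number deviated together (Pearson's r across genes of 0.43, 0.18 and 0.47). The scramble arrays too lay below all scar arrays, with a log2 difference of -0.42 ± 0.092 (SE, adjusted p = 0.00484).

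The cell type label was set against marker lists. Col1a2, a chain of type I collagen, measured 14.48, 14.46 and 14.48 on the scramble arrays and 14.74, 14.74, 14.58 and 14.60 on the scar arrays, and Vim, an intermediate filament of mesenchymal cells, measured 14.58, 14.60 and 14.58 and 14.34, 14.51, 14.43 and 14.46. Of 15 fibroblast markers 6 were lower in the scramble cultures and none was higher, and their summed linear signal was 123430 to 127189 against 135652 to 149326. The scar arrays were less alike in muscle genes. The mean log2 value of 16 skeletal muscle and myoblast markers was 10.04 and 8.30 on scar arrays 1 and 3, 6.55 and 6.71 on scar arrays 2 and 4, and 5.95, 6.74 and 6.02 on the scramble arrays. Their summed signal was 4406 to 40118 on the scar arrays against 2518 to 3719. Myog, a myoblast regulator chosen here after its values were seen, measured 12.20 and 10.37 on scar arrays 1 and 3 against 5.85 and 7.70 on the others. The naive arrays measured 7.40, 6.2 and 8.30 in the list mean, with a summed signal of 3091 to 12813, so that naive array 3 was level with scar array 3. Muscle transcripts were thus raised on scar arrays 1 and 3 beside the other scar arrays, and counts for several of the lists are also given without these 2 arrays.

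Markers of other cell types are given by their summed signal in each group, which compares the groups within a list and not one list with another. Counts of called markers, here and above, stand beside 16.5% of all genes higher and 13.6% lower. A count near these shares is not read as a result about a cell type. Macrophage markers summed to 2785 to 4241 on the scramble arrays and 1960 to 2825 on the scar arrays, with Cd14 the 1 of 16 that was higher and Itgam the 1 that was lower. Epithelial markers summed to 916 to 1021 against 971 to 1291 (2 of 15 lower), and endothelial markers to 1641 to 2135 against 1728 to 1999 (1 of 11 higher, 2 lower). Smooth muscle and pericyte markers summed to 2282 to 3559 against 8232 to 15686 (3 of 10 lower), and chondrocyte markers to 1154 to 1377 against 1558 to 8167 (1 of 10 lower). The range for adipocyte markers was 467 to 635 against 633 to 4179 (1 of 9 lower), for Schwann cell markers 2628 to 3153 against 4510 to 6194 (2 of 6 lower), and for lymphocyte markers 566 to 574 against 570 to 650 (1 of 10 higher, 2 lower). Fewer cells of a type and less RNA per cell cannot be told apart in such cultures. Some markers are not particular to their list. The Schwann cell list held Pmp22 (scar mean 11.50) and Egr2 (10.58), and Egr2 is also an immediate early gene. Actg2 (12.33) and Myh11 (11.10) of the smooth muscle list are counted again below among the contractile genes. A sum was thus not shown to measure cells of its type.

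Across all genes, 2341 were higher in the scramble cultures and 1928 were lower, which is 16.5% and 13.6% of those tested, and 5828 genes had an unadjusted p under 0.05. Without scar arrays 1 and 3 the counts were 1788 and 1393, and 2964 genes were called both ways. At least 2-fold differences numbered 403 up and 291 down, and at least 4-fold differences 125 and 46, so the larger ones leaned toward a rise. In 2656 genes (18.7%) the 3 scramble arrays all lay above the 4 scar arrays, and in 2236 (15.7%) they all lay below. The median difference of all genes was -0.0082. The counts of list members that follow stand beside these shares of all genes, 16.5% higher and 13.6% lower.

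**Figure D1:**
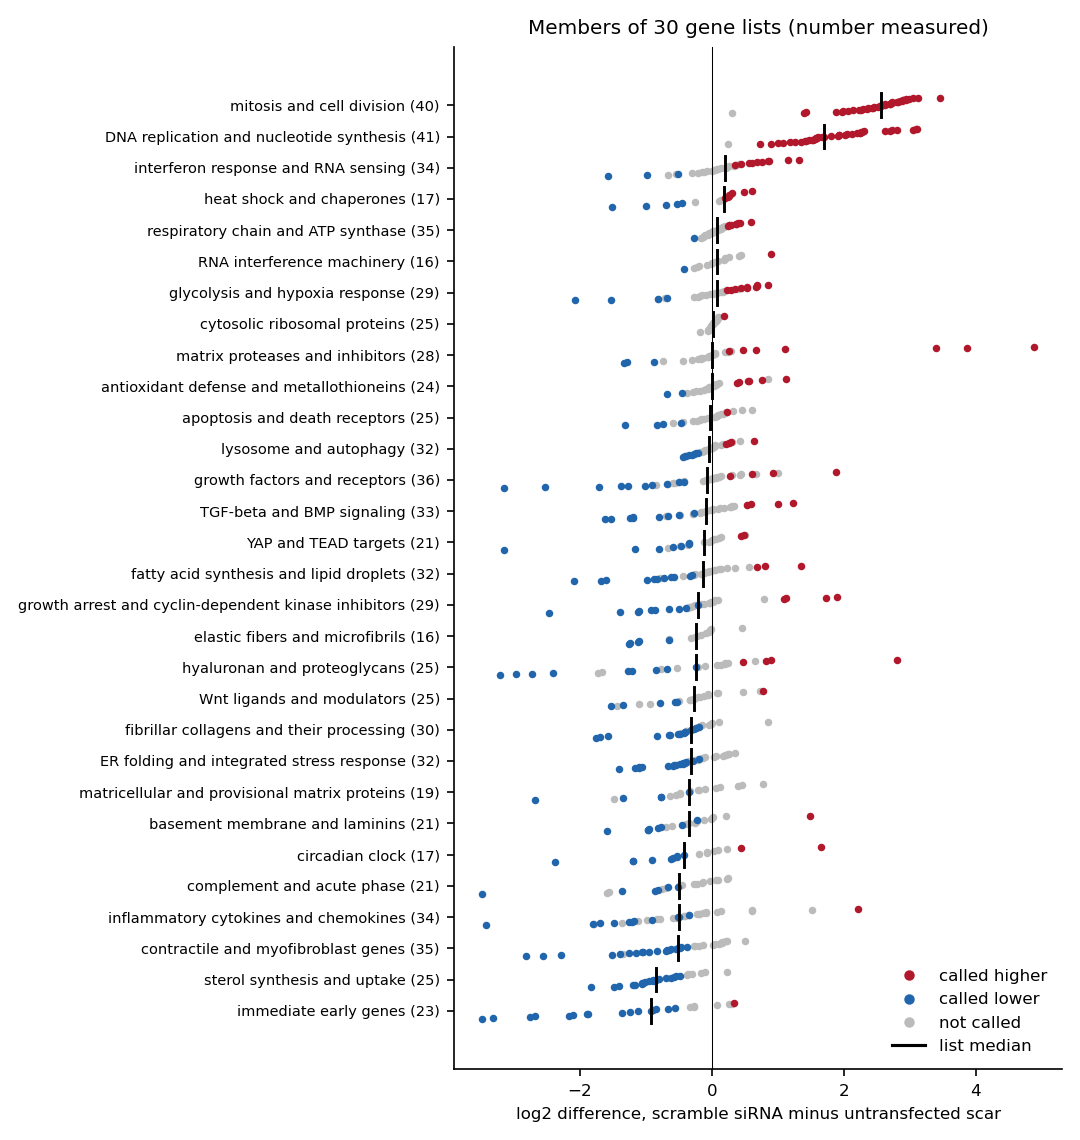
Log2 difference (scramble siRNA minus untransfected scar) of every measured member of 30 gene lists, 1 point per gene, with the number of members in brackets and the list median as a black bar. Mitosis and DNA replication genes sit to the right of 0 as whole lists, with medians of 2.57 and 1.70, while most other lists spread around or below 0.

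Cell division genes made up the broadest rise. Of 40 measured genes of mitosis, 39 were higher and none lower, and of 41 genes of DNA replication and nucleotide synthesis, 40 were higher and none lower, against the 16.5% of all genes that were higher. The list medians were 2.57 and 1.70. The members not called were Cdc20, an activator of the anaphase-promoting complex, with a difference of 0.31, and Rrm1, a subunit of ribonucleotide reductase, with 0.24. With the probe set of highest mean, or with probe sets averaged, all 40 mitosis genes were higher. In 39 and 40 members all scramble arrays lay above all scar arrays, against 18.7% of all genes. Without scar arrays 1 and 3 the counts were again 39 and 40.

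Mki67, a nuclear protein of cycling cells, measured 10.68, 10.44 and 10.59 on the scramble arrays and 6.51, 7.79, 8.09 and 6.03 on the scar arrays. This was an 11-fold rise, with a log2 difference of 3.46 ± 0.42 (SE, adjusted p = 0.000102). Ccna2, a cyclin of S phase and G2, measured 10.02, 10.49 and 10.12 against 6.76, 7.94, 8.10 and 5.56, a rise of 3.12 ± 0.47 (adjusted p = 0.000518). In both genes scar arrays 2 and 3 were higher than scar arrays 1 and 4 by over 1 log2 unit, and the scramble arrays lay within 0.24 of each other in Mki67 and 0.47 in Ccna2.

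Other genes of the spindle and of cell separation rose in the same order of size. Racgap1, which organizes the central spindle, measured 11.23, 11.37 and 11.46 against 8.13, 9.02, 8.84 and 7.26, a rise of 3.04 ± 0.35. Bub1b, a kinase of the spindle checkpoint, measured 9.42, 9.42 and 9.75 against 6.11, 7.08, 7.17 and 5.81, a rise of 2.98 ± 0.28. Ccnb2, a mitotic cyclin, measured 11.47, 11.61 and 11.74 against 8.15, 9.03, 9.57 and 7.94. Among the 15 largest rises of called, non-overlapping genes with a gene name were also Ska1 of the kinetochore and the motor proteins Kif15 (9.73-fold) and Kif20b (8.77-fold). The same 15 held the spindle pole gene Aspm (9.07-fold), Mis18a, which helps to mark centromeres (8.7-fold), Shcbp1 (15.2-fold) and Depdc1 (8.74-fold).

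The S phase genes named by the rule rose by a like amount. Orc1, a subunit of the origin recognition complex, measured 6.63, 7.08 and 6.73 against 3.73, 3.98, 3.87 and 3.47, a rise of 3.05 ± 0.14 (adjusted p = 7.64e-07). Cdt1, which loads the replicative helicase, measured 9.42, 9.67 and 9.52 against 6.05, 6.58, 7.10 and 6.04, a rise of 3.10 ± 0.22. E2f8, a repressor of the E2F family, measured 7.70, 7.96 and 8.23 against 4.74, 5.39, 5.25 and 4.01. The scar values of Orc1 lay near the lowest value of the file, 2.72.

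Ccne2, a cyclin of the G1 to S step, rose by 2.81 ± 0.22 on the probe set used, while a second probe set of the gene differed by 0.11 ± 0.16. Exo1, an exonuclease of replication and repair, measured 7.93, 8.13 and 8.02 against scar values of 4.42, 4.93, 4.65 and 3.87 that were not shown to be above background, and Pclaf, a partner of the sliding clamp, rose 8.97-fold. Hmmr, a hyaluronan receptor that also acts at the spindle, measured 10.08, 10.07 and 10.51 against 6.89, 7.97, 8.22 and 6.57 and rose 6.98-fold.

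In the untransfected naive cultures mitosis genes were lower still. On the naive arrays Mki67 measured 4.55, 4.23 and 4.95, below all scar arrays, a difference of -2.53 from scar (adjusted p = 0.00816). Of the 40 mitosis genes 30 were lower in naive than in scar cultures, with 2.63% of all genes lower in that comparison, and of the 41 replication genes 5 were lower. The mean log2 value of the mitosis list was 6.31 to 6.56 on the naive arrays, 7.03 to 8.25 on the scar arrays, 10.04 to 10.30 on the scramble arrays and 10.07 to 10.29 on the gp46 siRNA arrays. The order of the 4 groups was thus naive, scar, and then both siRNA groups, whose ranges overlapped. These comparisons share the scar arrays.

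**Figure D2:**
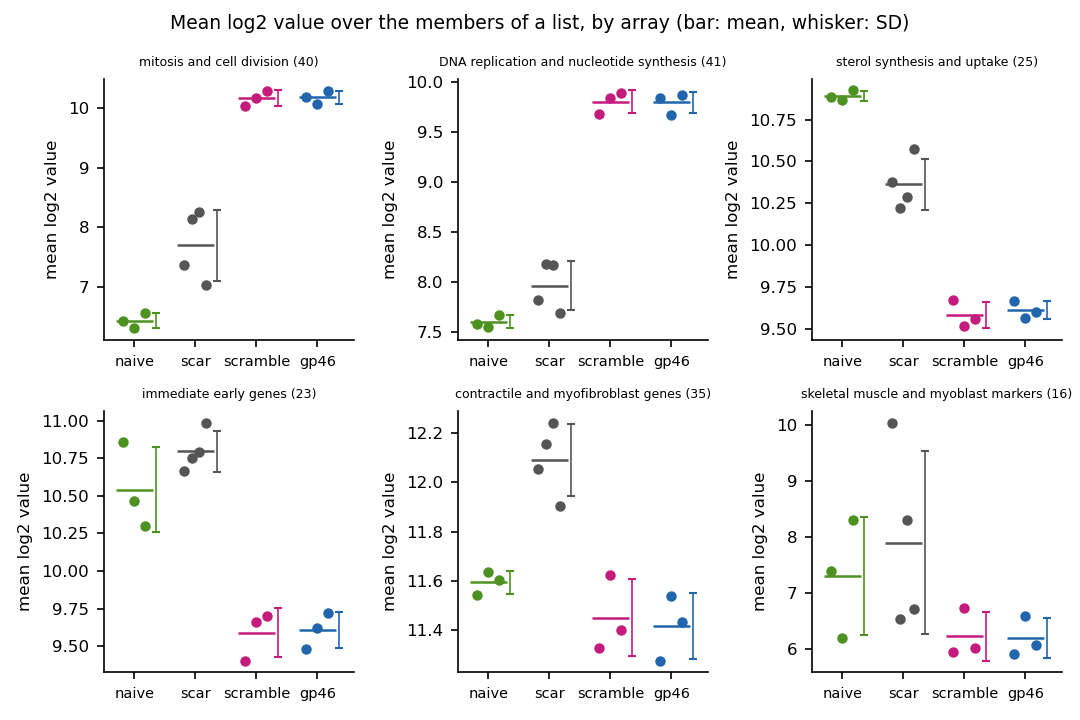
Mean log2 value over the members of 6 lists on each of the 13 fibroblast arrays (y axis), by group (x axis), with the group mean as a bar and the SD as a whisker; the y axes do not start at 0. The mitosis list lies at 10.04 to 10.30 on the scramble arrays against 7.03 to 8.25 on the scar arrays, and the muscle markers are highest on scar array 1, with scar array 3 and naive array 3 next at 8.30.

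Promoters of these genes are shown because the mitosis list moved nearly as a whole. RefSeq promoters (GRCr8, the 250 bases before the start) were matched for 34 of the 40 mitosis genes and 36 of the 41 replication genes. A CHR (TTTGAA or TTTAAA, either strand) was in 26 of the 34 mitosis promoters, or 76.5%, against 25.3% of 27457 promoters. A CCAAT box (CCAAT, either strand) was in 76.5% against 34.3%, and both together in 67.6% against 8.88%. The CCAAT box alone was not particular to the mitosis list. It was in 55.6% of the 36 replication promoters. It was also in 70.0% of 20 promoters of the sterol list, whose called genes were all lower (below). In the replication list the CHR share was 16.7%, below that of all promoters, and an E2F site (TTTCCCGC, TTTGGCGC or TTTCGCGC, either strand) was in 22.2% against 1.49%. The 2 largest rises per list with such a motif in the last 150 bases are printed 5′ to 3′, with CHR and CCAAT motifs in capitals for mitosis genes and E2F motifs in capitals for replication genes.
Mki67 (chr1:199952594-199952743, minus strand): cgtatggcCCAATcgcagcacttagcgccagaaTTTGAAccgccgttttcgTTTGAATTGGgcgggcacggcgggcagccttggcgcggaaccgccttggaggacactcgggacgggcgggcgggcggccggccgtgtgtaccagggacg
Ccnb2 (chr8:79981659-79981808, minus strand): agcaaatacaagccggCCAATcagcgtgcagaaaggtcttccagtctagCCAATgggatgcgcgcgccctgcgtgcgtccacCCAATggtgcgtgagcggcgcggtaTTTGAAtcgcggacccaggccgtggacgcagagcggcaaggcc
Gins1 (chr3:160184770-160184919, plus strand): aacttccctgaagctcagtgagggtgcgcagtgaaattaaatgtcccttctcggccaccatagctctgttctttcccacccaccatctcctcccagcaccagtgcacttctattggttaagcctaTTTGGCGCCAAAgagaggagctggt
Mcm6 (chr13:42404353-42404502, minus strand): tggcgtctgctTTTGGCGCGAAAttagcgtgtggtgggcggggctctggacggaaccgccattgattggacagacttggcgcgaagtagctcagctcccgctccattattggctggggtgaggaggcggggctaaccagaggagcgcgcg
Mki67 and Ccnb2 each held a CHR downstream of a CCAAT box, and in Mki67 a second CHR shared letters with a CCAAT box on the other strand. In Gins1, a subunit of the replicative helicase, and Mcm6, a helicase subunit, matches on both strands overlapped in 1 palindrome-like stretch. Gins1 rose by 2.69 and Mcm6 by 2.62 on the log2 scale. A match is a string of letters and was not shown to be bound. The shares are those of the chosen lists and do not depend on how the genes moved.

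**Figure D3:**
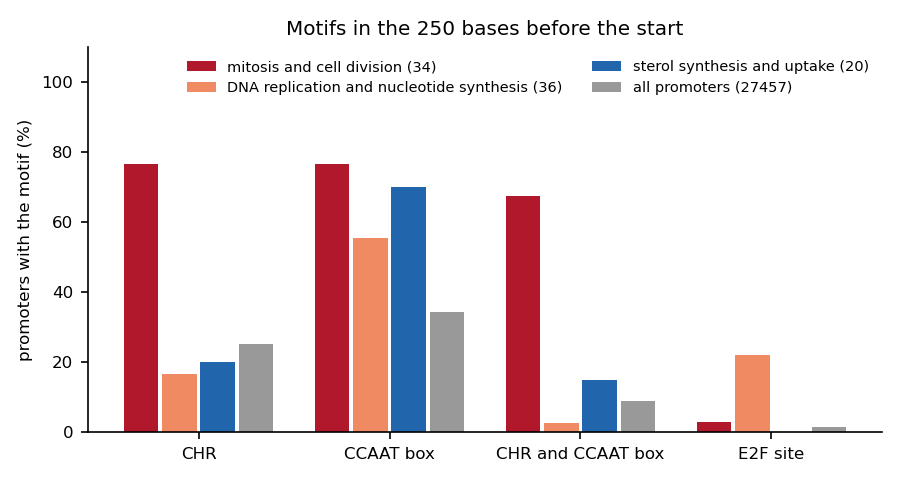
Share of promoters (%, 250 bases before the start) that hold a motif on either strand, for 3 gene lists and for all RefSeq promoters, with the number of promoters in brackets. The CHR stands at 76.5% in the mitosis list against 25.3% of all promoters, and the E2F site at 22.2% in the replication list against 1.49%.

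Regulators of the G1 phase moved both ways. Of 29 genes of growth arrest and cyclin-dependent kinase control, 4 were higher and 10 lower, with a median of -0.21. Ccnd1, the G1 cyclin induced by growth factors, measured 13.45, 13.36 and 12.96 against 11.60, 11.76, 11.11 and 10.97, a rise of 1.90 ± 0.23 (adjusted p = 9.18e-05), and its other 2 probe sets rose by 1.87 and 1.66. Rbl1, a pocket protein, measured 8.79, 9.07 and 9.02 against 6.94, 7.54, 7.52 and 6.91 and rose 3.32-fold. The other 2 risers were Ccnd2 (1.09) and Cdkn2c (1.12).

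Cdkn1c (p57), an inhibitor of cyclin-dependent kinases, measured 5.83, 7.57 and 6.27 against 10.64, 8.84, 8.88 and 7.74, a log2 difference of -2.47 ± 0.65 (adjusted p = 0.0138). It was highest on scar array 1, and without scar arrays 1 and 3 the difference was -1.73 (adjusted p = 0.0793). It also missed the threshold without scramble array 1 (0.0631) or scramble array 3 (0.0513). Gadd45b, a stress sensor, measured 10.08, 10.10 and 9.89 against 11.13, 11.39, 11.41 and 11.74 and fell 2.63-fold.

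Matrix proteases held the largest single rise among called, non-overlapping genes with a gene name. Mmp13, the main rodent collagenase, measured 11.75, 10.22 and 10.12 on the scramble arrays and 7.45, 6.51, 4.89 and 4.38 on the scar arrays, a 29.6-fold rise (log2 4.89 ± 0.81, adjusted p = 0.000897). Mmp10, a stromelysin, measured 9.64, 9.16 and 8.78 against 5.68, 5.39, 5.35 and 4.92, a 14.5-fold rise (3.86 ± 0.24, adjusted p = 1.97e-06). Mmp3, also a stromelysin, measured 13.97, 13.22 and 12.90 against 11.44, 9.49, 9.31 and 9.64, a 10.5-fold rise. Scramble array 1 was the highest of its group in all 3 genes, and no scar array reached the lowest scramble array. That lack of overlap was a condition of their rank among the largest rises.

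These 3 genes stood apart within their list. Of 28 proteases and inhibitors 7 were higher and 3 lower, against 16.5% and 13.6% of all genes, and the list median was 0.002. Mmp2, Mmp9 and Mmp14 were not called, with differences of -0.21, -0.048 and -0.0033. Timp3, an inhibitor of metalloproteases, measured 11.44, 11.77 and 11.03 against 12.85, 12.86, 12.39 and 12.89 and fell 2.52-fold, while Timp1 rose by 0.67. On the naive arrays Mmp13 measured 8.04, 5.55 and 7.14, a difference of 1.10 from scar that was not called (adjusted p = 0.48).

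Nptx1, a secreted pentraxin known from neurons, had the second largest rise in the same ranking. It measured 11.00, 10.83 and 11.15 against 7.46, 6.24, 7.08 and 6.11, a 19.3-fold rise (4.27 ± 0.58, adjusted p = 0.000237). Among growth factors and receptors 4 of 36 were higher and 10 lower (median -0.077), against 16.5% and 13.6% of all genes. Kitlg, the ligand of the Kit receptor, measured 8.58, 7.50 and 9.12 against 5.92, 6.05, 6.96 and 7.16 and rose 3.67-fold on the probe set used. Its other probe sets differed by 0.98 (called) and by 0.25 and 0.62 (not called). Fgf18 measured 6.19, 6.32 and 7.39 against 9.35, 9.65, 8.72 and 8.93 and fell 5.78-fold, and Igf1 fell 3.27-fold.

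Igfbp3, a carrier of insulin-like growth factors and a gene of both this list and the YAP and TEAD target list, measured 7.31, 7.30 and 7.54 against 12.06, 9.58, 10.22 and 10.26. It fell 8.87-fold (-3.15 ± 0.43 on the log2 scale, adjusted p = 0.000245), with scar array 1 the highest. Of 21 YAP and TEAD targets 7 were lower, among them F3 (-1.16), Tgfb2 (-0.81) and Ajuba (-0.58), and 2 were higher (median -0.12). Second probe sets of Tgfb2 (-0.44) and Ajuba (-0.25) were not called. Ccn2, a standard target, had a difference of 0.058 and was not called.

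Immediate early genes, which switch on within minutes of a stimulus, were lower as a group. Of 23 members 16 were lower and 1, Jund (0.34), was higher, against 13.6% of all genes lower, and the median was -0.92. Atf3, a stress-induced repressor, measured 6.48, 7.46 and 7.76 on the scramble arrays and 10.49, 10.84, 10.83 and 10.71 on the scar arrays, an 11.2-fold fall (-3.48 ± 0.36, adjusted p = 3.26e-05). Nr4a1, an orphan nuclear receptor, measured 8.82, 9.91 and 10.11 against 12.40, 12.25, 12.34 and 12.47 and fell 6.75-fold, and its relative Nr4a3 fell 9.91-fold. Scramble array 1 was the lowest for Atf3 and Nr4a1, and the scar arrays lay within 0.35 of each other in Atf3 and 0.22 in Nr4a1.

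Fosb, a partner of Jun in AP-1, measured 8.78, 10.21 and 9.56 against 11.97, 12.44, 12.18 and 12.22 and fell 6.44-fold. Egr2, which the Schwann cell list holds as well, measured 8.69, 8.62 and 8.75 against 11.10, 9.81, 10.55 and 10.87 and fell 3.72-fold. Myc and Fosl1 were not called, with differences of -0.27 and 0.31. Without scar arrays 1 and 3, 17 members were lower.

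Stress genes of the endoplasmic reticulum were lower as well. Of 32 members of the folding and integrated stress response list, 16 were lower and none higher (median -0.31), against 13.6% of all genes lower, and without scar arrays 1 and 3 the count was again 16. Chac1, a glutathione-degrading enzyme induced by ATF4, measured 10.77, 10.96 and 10.59 against 12.09, 12.31, 12.17 and 12.14 and fell 2.66-fold (adjusted p = 1.16e-05). Trib3 measured 9.41, 10.24 and 10.11 against 11.37, 11.44, 10.86 and 10.67, and Atf5 measured 11.49, 11.80 and 11.37 against 12.79, 12.76, 12.51 and 12.55, with falls of 2.24 and 2.14-fold. Sesn2 fell 2.15-fold on the probe set used. Atf4 fell by 0.57, while Ddit3 (-0.22) was not called.

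Heat shock genes split. Of 17 members 7 were higher and 5 lower (median 0.18). Hspa1a, an inducible chaperone, measured 9.49, 10.03 and 9.74 against 10.90, 11.35, 11.40 and 11.42 and fell 2.85-fold, Cryab fell 1.99-fold and Dnajb4 fell 1.61-fold. Hspd1, a mitochondrial chaperone, rose 1.53-fold. Of 24 antioxidant genes and metallothioneins 6 were higher and 2 lower (median -0.001). Nqo1, a quinone reductase, measured 13.76, 13.63 and 13.54 against 12.63, 12.57, 12.56 and 12.34 and rose 2.17-fold, Gstp1 rose 1.7-fold, Mt1 rose 1.48-fold with groups that overlapped, and Sod3 fell 1.61-fold.

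Genes that answer foreign RNA showed a mixed picture. Of 34 interferon response and RNA sensing genes, 10 were higher and 3 lower, and 16.5% of all genes were higher. Usp18, which dampens interferon signaling, measured 9.72, 9.78 and 9.76 against 8.35, 8.37, 8.82 and 8.87 and rose 2.21-fold (adjusted p = 0.00053), and Ifi44l rose 2.49-fold. Isg20, an exonuclease, measured 6.22, 6.43 and 6.36 against 7.76, 7.99, 7.90 and 7.99 and fell 2.98-fold, and Zbp1, a nucleic acid sensor, fell 1.97-fold. Ifnb1, Ifit1, Mx1 and Oas1a were not called, with differences of -0.079, 0.055, -0.67 and -0.15. The count of higher members was 6 without scar array 1 and 5 without scramble array 3, and that of lower members 5 without scar array 2.

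Of 16 members of the RNA interference machinery 1 was higher and 1 lower (median 0.072), against 16.5% and 13.6% of all genes. Tsn, a subunit of the C3PO nuclease, measured 8.76, 8.23 and 8.79 against 7.64, 7.56, 7.38 and 8.19 and rose 1.87-fold. Tnrc6a, a partner of Argonaute, fell 1.34-fold on the probe set used, but its 4 probe sets moved both ways, from -0.42 to 0.81. Dicer1 and Ago1 had differences of 0.27 and 0.054.

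Of 34 inflammatory cytokines, chemokines and their regulators, 11 were lower and 1 higher (median -0.50). Ccl11 (eotaxin) measured 4.02, 4.89 and 5.42 against 8.07, 4.98, 9.19 and 10.56, a log2 difference of -3.42 ± 1.10 (adjusted p = 0.0357), with scar array 2 near the scramble arrays. It, Ccl7 (-1.80) and Ccl20 (-1.69) had overlapping groups. Ccl11 kept its call among the single omissions only when scar array 2 was left out. The list count was 5 without scramble array 1, 7 without scramble array 2, 6 without scar array 3 and 4 without scar arrays 1 and 3. Il1rl1, the receptor of interleukin-33, measured 12.93, 12.49 and 12.80 against 10.06, 10.33, 11.68 and 10.04 and rose 4.63-fold.

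Complement and acute phase genes gave 6 lower of 21 and none higher (median -0.49). C3, the central complement component, measured 5.03, 6.66 and 6.71 against 9.63, 7.59, 10.85 and 10.35, an 11.1-fold fall (-3.47 ± 0.72, adjusted p = 0.00357). The 4 scar arrays spanned over 3 log2 units in C3, and their lowest, array 2, lay 0.88 above the highest scramble array. Cd55, which guards cells against complement, fell 2.57-fold, Cp fell 1.81-fold and Lcn2 fell 1.77-fold. A further probe set of Cp (-0.37) was not called. Of 25 apoptosis genes 4 were lower and 1, Mcl1 (0.24), was higher (median -0.030), against 13.6% and 16.5% of all genes. The falls were in Casp4 (-1.32), Bbc3 (-0.82), Casp12 (-0.74) and Bak1 (-0.47), with overlapping groups in Casp12 and Bak1.

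**Figure D4:**
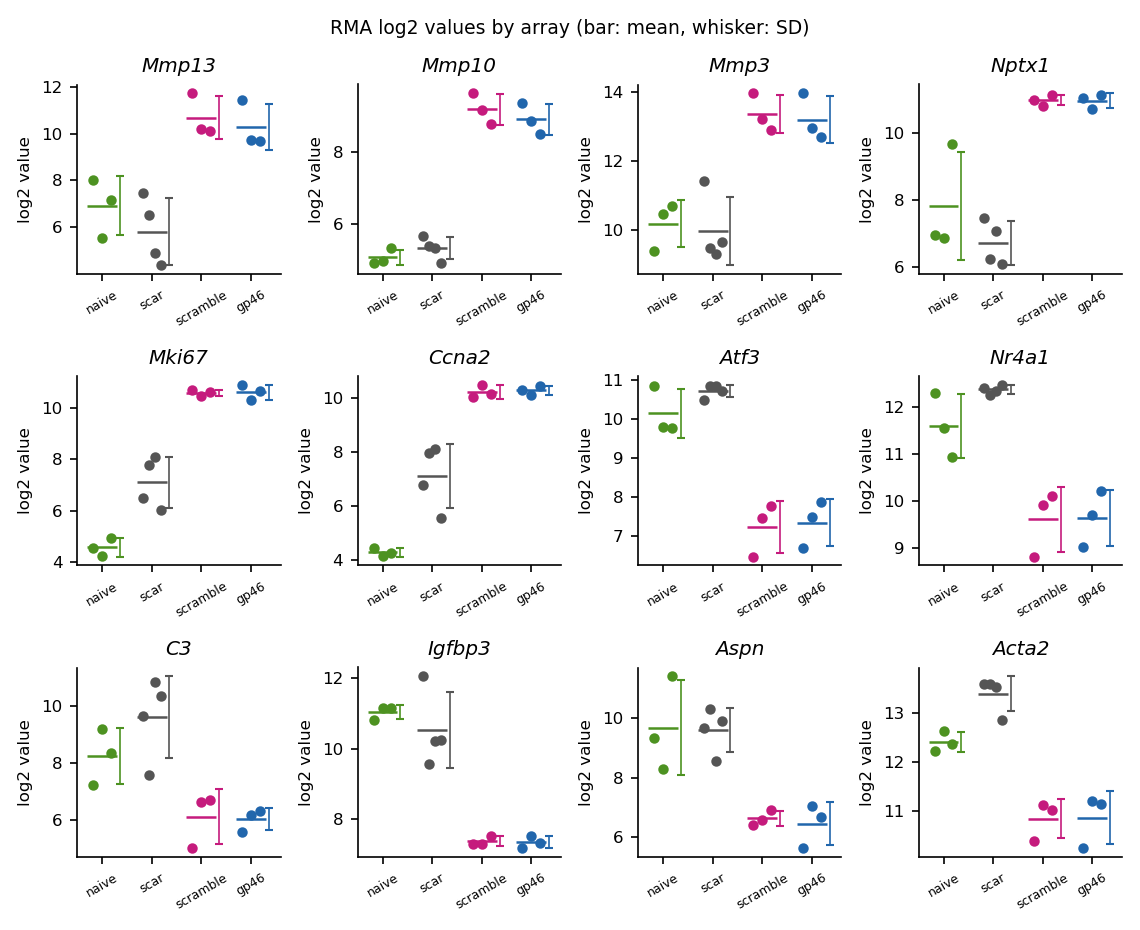
RMA log2 values (y axis) of 12 genes on each of the 13 fibroblast arrays, by group (x axis), with the group mean as a bar and the SD as a whisker; the y axes do not start at 0. In each gene the 3 scramble arrays lie apart from the 4 scar arrays, as in Mmp13 with 10.12 and above against 7.45 and below. All but Acta2 were ranked among the largest rises or falls, for which this was a condition.

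Contractile and myofibroblast genes were lower in 20 of 35 members and higher in none (median -0.51). Acta2, smooth muscle actin, the defining myofibroblast gene, measured 10.38, 11.12 and 11.03 on the scramble arrays and 13.59, 13.61, 13.54 and 12.87 on the scar arrays, a 5.89-fold fall (-2.56 ± 0.27, adjusted p = 3.74e-05). Myh11, smooth muscle myosin, measured 7.36, 8.94 and 8.54 against 11.41, 11.26, 11.12 and 10.60 and fell 7.07-fold. Cnn1 (calponin) measured 10.04, 10.64 and 10.59 against 11.67, 12.37, 12.00 and 11.73 and fell 2.86-fold. Actg2 measured 9.39, 10.49 and 10.24 against 10.62, 12.97, 13.38 and 12.34, with groups that came within 0.13 of each other.

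Without scar arrays 1 and 3, where muscle transcripts were high, 17 contractile members were lower. Acta1, skeletal muscle actin, measured 6.40, 8.99 and 7.83 against 13.22, 11.76, 11.90 and 10.17, a 16.2-fold fall (adjusted p = 0.00572). It was the largest fall among called, non-overlapping genes with a gene name. Without scar arrays 1 and 3 its difference was -3.23 and its adjusted p 0.0513. Myh2, a fast muscle myosin, fell 6.31-fold with all arrays, and its difference was -2.07 without those 2 (adjusted p = 0.0860). Acta2 kept its call in every alternative run, with differences of -2.76 to -2.06.

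In the naive cultures, of which array 3 also held raised muscle markers, 11 of the 35 contractile genes were lower than in the scar cultures, with 2.63% of all genes lower in that comparison. Myh11 measured 8.50, 9.72 and 9.08 there, a difference of -2.0 from scar (adjusted p = 0.0341), and Cnn1 differed by -1.86 (adjusted p = 0.00252). Acta2 measured 12.24, 12.63 and 12.36 on the naive arrays, between the scramble and the scar arrays, and its difference from scar was -0.99 (adjusted p = 0.0546).

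Collagens and their processing enzymes were lower in 15 of 30 members and higher in none (median -0.31). The main fibril chains differed by -0.63 for Col1a1, -0.48 for Col3a1 and -0.19 for Col1a2 on the log2 scale, and the call of Col1a2 was lost in 5 of the 7 single omissions. The members with the largest falls were Col11a1, Col12a1 and Col14a1. Col11a1 measured 8.19, 8.71 and 7.53 against 10.32, 10.46, 9.26 and 9.54 and fell 3.37-fold, Col12a1 fell 3.22-fold, and Col14a1 measured 10.49, 10.88 and 10.44 against 12.13, 12.13, 12.04 and 12.39 and fell 2.97-fold. The other probe sets of Col12a1 differed by -1.70 and by -0.51, the latter not called. Bmp1, which trims procollagen, fell 1.77-fold. Without scar arrays 1 and 3 the count was 10.

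Basement membrane genes gave 8 lower and 1 higher of 21 (median -0.35). Col4a2 measured 10.64, 11.17 and 10.82 against 12.51, 12.26, 12.79 and 12.31 and fell 3-fold, its partner chain Col4a1 fell 1.95-fold, and the laminin chain Lamb2 fell 1.95-fold. Col15a1, the 1 that rose, measured 9.95, 9.81 and 9.36 against 8.81, 7.83, 8.77 and 7.46. Of 16 elastic fiber genes 5 were lower and none higher (median -0.24). Fbln5, which assembles elastin, measured 11.56, 11.72 and 11.28 against 12.56, 12.59, 12.56 and 12.76 and fell 2.14-fold. Eln itself measured 11.29, 11.45 and 9.89 against 12.29, 12.59, 11.68 and 11.95 (adjusted p = 0.0284), with scramble array 3 lowest, and without that array its difference was -0.76 (adjusted p = 0.119). A second probe set of Eln differed by -0.44 and was not called. Mfap4 and Mfap2 fell 2.36 and 2.16-fold.

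Among small proteoglycans that bind collagen, Omd and Aspn fell over 7-fold. Omd (osteomodulin) measured 5.21, 5.61 and 5.07 against 9.57, 9.35, 7.43 and 7.64, a 9.21-fold fall (adjusted p = 0.000787). Aspn (asporin) measured 6.42, 6.58 and 6.90 against 9.66, 10.28, 8.56 and 9.89, a 7.82-fold fall (adjusted p = 0.00413). Their relatives Dcn, Lum and Fmod were not called, with differences of 0.24, -0.21 and -1.73. Of 25 hyaluronan and proteoglycan genes 9 were lower and 4 higher (median -0.24).

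Hyaluronan genes moved in opposite ways. Cemip, which breaks down hyaluronan, measured 9.60, 10.54 and 9.78 against 12.04, 12.48, 12.93 and 13.33 and fell 6.6-fold (adjusted p = 0.000174). Has2, a hyaluronan synthase, rose by 0.89, and the receptor Cd44 rose by 0.47. Of 19 matricellular genes 5 were lower and none higher (median -0.34). Tnn (tenascin-W) measured 6.29, 9.56 and 7.91 against 10.90, 12.11, 10.60 and 8.81 with overlapping groups, Ccn3 fell 2.55-fold, Igfbp7 fell 1.71-fold, Ccn4 fell 1.71-fold and Ccn1 fell by 0.34 on the log2 scale.

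Among signaling ligands, 9 of 33 TGF-β and BMP genes were lower and 4 higher (median -0.091). Tgfb3 measured 11.21, 11.48 and 11.35 against 12.36, 13.02, 12.73 and 12.22 and fell 2.36-fold, while Tgfb1 was not called (0.10). Bmp3 fell 3.07-fold, Chrd, an antagonist of BMPs, fell 2.89-fold, and Id2, a target of BMP signaling, rose 2.34-fold. Of 25 Wnt genes 5 were lower and 1 higher (median -0.27), against 13.6% and 16.5% of all genes. Nkd2, an inhibitor inside the Wnt pathway, measured 8.49, 8.65 and 8.61 against 10.01, 9.96, 10.47 and 10.00 and fell 2.88-fold. Wif1 (-1.34, with groups that overlapped) and Wnt5b (-0.78) fell, and Wnt5a rose by 0.78.

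Sterol genes were lower nearly throughout the pathway. Of 25 members 19 were lower and none higher (median -0.85), against 13.6% of all genes lower, and 18 were lower without scar arrays 1 and 3. They included enzymes from Acat2 (-1.01) near its start to Dhcr7 (-1.05) at its end. Tm7sf2, a sterol reductase, measured 9.18, 8.99 and 8.89 on the scramble arrays and 10.97, 10.46, 10.55 and 11.43 on the scar arrays, a 3.56-fold fall (adjusted p = 3.09e-05). Lss, lanosterol synthase, measured 10.18, 10.14 and 9.94 against 11.60, 11.31, 11.32 and 11.74 and fell 2.65-fold (adjusted p = 1.03e-05). Idi1 measured 11.20, 10.85 and 10.82 against 12.04, 12.04, 12.19 and 12.33 and fell 2.28-fold. Srebf2, which drives these genes, fell by 0.85, and Insig1, which restrains it, fell by 1.04. The 6 members not called were Nr1h3, Ebp, Nr1h2, Abcg1, Stard4 and Abca1, of which Abca1, a cholesterol exporter, had the 1 positive difference (0.23).

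The naive cultures lay on the other side of the scar cultures. There 16 of the 25 genes were higher than in scar cultures and 1, Abca1, was lower, with 2.84% of all genes higher and 2.63% lower in that comparison. Lss measured 12.48, 12.35 and 12.20 on the naive arrays, above all scar arrays, a difference of 0.85 (adjusted p = 0.00365). Tm7sf2 measured 12.42, 12.45 and 12.46, a difference of 1.59 (adjusted p = 0.00205). The mean log2 value of the list was 10.87 to 10.93 on the naive arrays, 10.22 to 10.57 on the scar arrays and 9.52 to 9.67 on the scramble arrays, without overlap. The list thus stood in the reverse order of the mitosis list across these 3 groups. Hsd17b7 fell 2.78-fold on the probe set used, and a second probe set differed by -0.16. A sterol element (TCACCCCAC or ATCACCCCA, either strand) was in 1 of 20 matched promoters, or 5.0%, against 0.535% of all promoters, and none is printed.

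**Figure D5:**
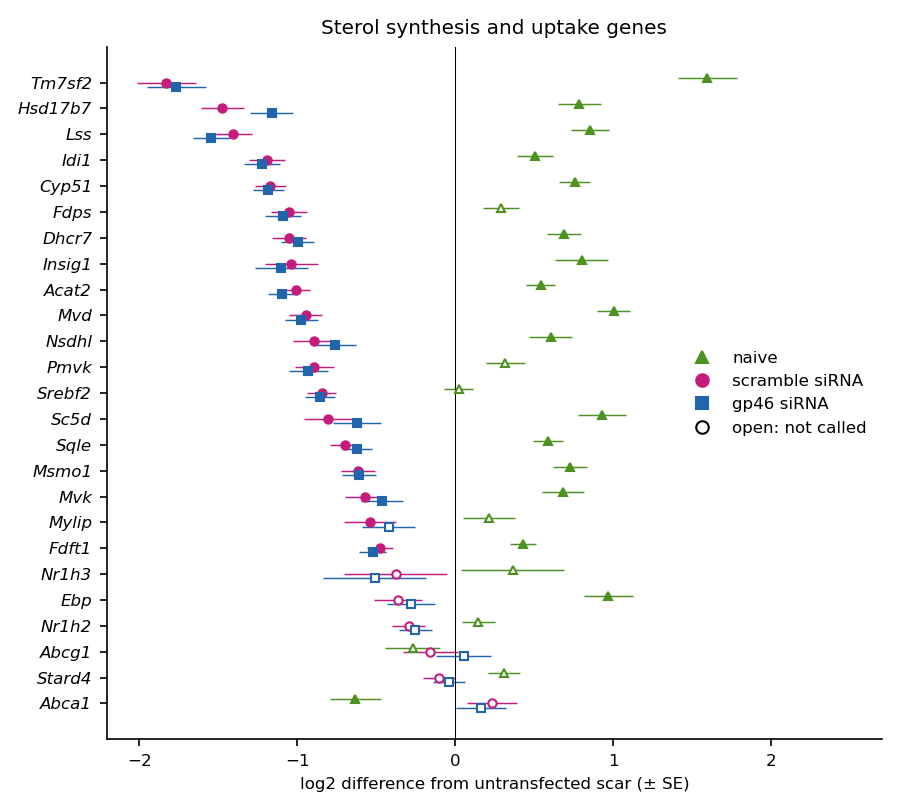
Log2 difference from untransfected scar cultures (x axis, ± SE) of 25 sterol synthesis and uptake genes in scramble siRNA, gp46 siRNA and naive cultures; filled marks are called and open marks are not. The siRNA groups lie left of 0 in the 19 called genes while the naive group lies right of 0, as for Lss with -1.41 in scramble and 0.85 in naive cultures.

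Fatty acid genes were lower in part. Of 32 genes of fatty acid synthesis and lipid droplets 11 were lower and 3 higher (median -0.14). Scd, a desaturase, measured 8.68, 8.67 and 8.59 against 10.96, 10.45, 10.49 and 11.00 and 11.83, 11.82 and 12.13 on the naive arrays, a 4.23-fold fall in the scramble cultures (adjusted p = 4.29e-06). Fads2, another desaturase, measured 7.83, 7.95 and 7.69 against 9.75, 9.13, 9.37 and 9.75 and fell 3.2-fold, while Fasn, the fatty acid synthase, was not called (-0.26). Cpt1a, which carries fatty acids into mitochondria, measured 10.22, 9.96 and 10.17 against 8.36, 8.96, 9.04 and 8.72 and rose 2.54-fold. Mgll fell 3.02-fold on the probe set used, with 2 of its other 3 probe sets lower and 1 at 0.04.

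Energy genes moved both ways. Of 29 genes of glycolysis and the hypoxia response 10 were higher and 4 lower (median 0.071), against 16.5% and 13.6% of all genes. The risers included the enzymes Tpi1 (0.69), Ldha (0.67), Pgk1 (0.53) and Eno1 (0.53). Ddit4, an inhibitor of mTORC1 that stress induces, measured 8.84, 9.05 and 9.45 against 11.20, 11.09, 11.04 and 11.40 and fell 4.21-fold, and Car9, a carbonic anhydrase known from hypoxic cells, measured 9.92, 10.28 and 10.00 against 11.32, 12.24, 11.16 and 11.66 and fell 2.88-fold. Ndrg1 rose 1.81-fold on the probe set used (0.42 and not called on a second), and Aldoc fell 1.76-fold.

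Of 35 respiratory chain and ATP synthase genes 8 were higher and 1 lower (median 0.080), against 16.5% and 13.6% of all genes, and the largest rise, in Sdhd, was 0.60 on the log2 scale, with 0.42 for Cox5a, 0.40 for Uqcrc1 and 0.37 for Atp5f1a. Of 25 ribosomal protein genes only Rpl18 was called, with 0.18 (adjusted p = 0.0308), and the median was 0.011. Of 32 lysosome and autophagy genes 4 were higher and 8 lower (median -0.042). Their named members moved little, with -0.43 for Ulk1, -0.41 for Gabarapl1 and -0.39 for Ctsh. A second probe set of Gabarapl1 (-0.13) was not called. Sqstm1 rose by 0.64 on the probe set used, while its other 3 probe sets were not called.

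Clock genes gave 9 lower and 2 higher of 17 (median -0.42). Per1 measured 8.34, 8.48 and 8.56 against 9.70, 9.75, 9.58 and 9.60 and fell 2.29-fold, Nfil3, a repressor, measured 7.78, 8.76 and 9.30 against 11.12, 10.93, 11.09 and 10.82 and fell 5.18-fold, and Npas2 fell 2.28-fold. Bmal1 (-0.62) and Nr1d1 (-0.59) were lower, while Per2 (0.093) and Cry1 (0.034) were not called. Tef rose 3.13-fold on the probe set used, and its other 2 probe sets were not called (0.22 and 0.15). The hour of collection was not analysed here.

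Further genes with large falls came from no common list. Lmcd1, a LIM domain protein of muscle and fibroblasts, measured 4.78, 5.98 and 5.25 against 8.98, 9.0, 8.72 and 8.95 and fell 12-fold (adjusted p = 3.28e-05). Lhfpl3 measured 3.69, 3.72 and 3.83 against 7.82, 7.28, 5.50 and 8.04, with scramble values that were not shown to be above background. Panx3, a channel protein of cartilage and bone cells, measured 5.83, 5.76 and 5.56 against 8.03, 8.93, 8.91 and 9.22 and fell 8.34-fold (adjusted p = 4.52e-06). In these 3 genes the groups stood at least 1.67 log2 units apart, though a lack of overlap was itself a condition for naming them. Col9a2, the 1 chondrocyte marker that was called, measured 9.13, 9.21 and 8.85 against 10.95, 11.45, 9.57 and 10.23.

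The gp46 siRNA arrays, which had the same schedule, gave values close to the scramble arrays for the genes above. Between these groups none of the 14217 genes, Serpinh1 included, was called in the unpaired limma fit (lowest adjusted p = 0.967). The differences of the gp46 siRNA arrays from the scar arrays were 4.49 for Mmp13, 3.49 for Mki67, -3.37 for Atf3, -2.54 for Acta2 and -1.54 for Lss. The scramble arrays gave 4.89, 3.46, -3.48, -2.56 and -1.41. Both comparisons use the same 4 scar arrays, and siRNA arrays of the same number deviated from their group means together (Pearson's r across genes of 0.43, 0.18 and 0.47).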

How the data were processed

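RNA of cultured VF fibroblasts was hybridised to Affymetrix rat arrays, and the authors deposited RMA log2 values (affy, per the labels) of 31099 probe sets. Every array has the same distribution of values to within 0.03, so a shift of all genes at once could not be seen. After removal of 57 control probe sets, 20826 probe sets with 1 gene symbol stood for 14217 genes. Of several probe sets of a gene, the one with the median mean value was used.

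The tests came from limma (3.58.1, under R 4.3.3), as 1 fit of 4 groups over 13 fibroblast arrays with no pairing, and the script was tested on simulated data. Same-numbered scramble and scar arrays did not deviate from their group means together (Pearson's r across genes of -0.08, -0.13 and 0.05). Arrays of different numbers were not compared, so this cannot show whether rats were shared. Genes were named by rule: the 15 largest rises and 15 largest falls among called, non-overlapping genes with a gene name, and up to 4 called members of each of 30 gene lists and 2 of each of 10 marker lists. Other list members given by their difference alone were picked after their values were seen. The members and lists were chosen with earlier results of these data known. Motifs were counted in RefSeq promoters (GRCr8). Alternatives covered the arrays fitted, a replicate block, array weights, scaling, filters, probe set choice, a lognormal-normal model, a fold limit and omission of single arrays. Python 3.11.15 and matplotlib 3.10.9 made the figures.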

Additional observations from a re-analysis of the deposited data

Results flagged for a closer look

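Among 187 values tested in the 4 scar cultures (147 named genes and 40 list means), 9 had 1 array far from the other 3 by Dixon's test, where chance flags about 1 in 20. On scar array 1, Mmp3 measured 11.43 against 9.31 to 9.64 on the others, and Hspa1a 10.90 against 11.35 to 11.42. On scar array 3, Timp3 measured 12.39 against 12.85 to 12.89, and Nkd2 10.47 against 9.96 to 10.01. On scar array 4, Acta2 measured 12.87 against 13.54 to 13.61, Bmp3 7.56 against 7.10 to 7.11, Fbln5 12.76 against 12.56 to 12.59, and Gstp1 12.97 against 13.20 to 13.23. The mean of the smooth muscle and pericyte markers was 7.64 on scar array 4 against 8.27 to 8.37. None of these arrays crossed into the range of the scramble arrays for the 8 genes, and the causes were not tested.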

How the results depend on the processing

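The counts of genes (2341 higher and 1928 lower) changed by over 1.5 times under 3 of 14 settings other than the omission of a single array. With a replicate block over scramble and scar arrays 1 to 3 they were 877 and 681, with 1269 and 1119 probe sets against 3708 and 3367, and 1493 of the 4269 genes called without the block were among those called with it. The arrays share only a number, so the block rests on no known pairing. The block gave 10 members of the endoplasmic reticulum stress list and 9 of the collagen list, against 16 and 15. The lognormal-normal model at a posterior probability over 0.95 gave 1417 and 1092 genes and 9 collagen members. With a difference of at least 2-fold added there were 403 and 291 genes, 9 sterol, 5 endoplasmic reticulum stress, 3 collagen and 9 contractile members. A fit of only the 7 scramble and scar arrays changed the counts by less than 1.5 times. It gave 1691 and 1356 genes, and 3012 of the 4269 genes were called both ways. Omission of single arrays gave 1863 to 2267 and 1418 to 1889 genes, and 2783 to 3607 and 2370 to 3232 probe sets. It gave 39 mitosis and 40 to 41 replication members higher, and 16 to 17 immediate early, 18 to 20 sterol, 14 to 17 endoplasmic reticulum stress, 13 to 17 collagen and 18 to 23 contractile members lower. The omission of scar arrays 1 and 3 together was added after seeing the data.

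Over 21 settings and 147 named genes, 2845 of 3073 values kept direction and call, 204 lost the call, 16 gained one and 8 turned sign. Dsp turned to -0.024 with centred arrays and with both siRNA groups averaged, and ranged from -0.107 to 0.187 over single omissions. Tnrc6a turned to 0.13 with probe sets averaged, Sqstm1 to -0.03 with the probe set of highest mean, and Lpl to 0.557 without scar arrays 1 and 3. The causes were not tested. Neither background correction nor signal over background could be varied in the deposited values, and with 3 and 4 arrays small differences of a gene may have gone uncalled.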
